A study of Rattus norvegicus with 24 samples.

Results

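The muscle-type miRNAs miR-1, miR-133a, miR-133b and miR-206 were followed in the brain of rats 3 months after a lateral fluid-percussion traumatic brain injury (TBI) or a sham operation. Members were taken by name, as every row for either arm of these 4 miRNAs in the miRNA count tables, which gave 8 of 728 rows (among them rno-miR-1-3p, rno-miR-133a-3p, rno-miR-133b-3p and rno-miR-206-3p, written below without the species prefix). Small RNA libraries were made from perilesional cortex and ipsilateral thalamus of 6 TBI rats and 6 sham-operated rats, all adult Sprague-Dawley males, so that 24 libraries fell into 4 groups of 6. In this model a fluid pulse strikes the dura through a craniectomy. The sham rats had the anaesthesia and the surgery without the pulse, and the temporal muscle on the operated side was detached from its ridge in both groups. The TBI rats were a selected set, chosen in the study for signs of chronic inflammation around the lesion on MRI, so they do not represent all injured rats. The 8 rows were picked by name, but the family was put forward when results of these data were already known, and the p-values below describe these samples rather than giving independent support.

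A miRNA guides silencing proteins to mRNAs mainly through its seed, bases 2 to 8 counted from the 5′ end. miR-1 and miR-133a are encoded side by side and are active in cardiac and skeletal muscle. miR-206 and miR-133b are encoded at another locus that is active in skeletal muscle. In skeletal muscle miR-1 and miR-206 promote differentiation of muscle cells and miR-133 acts on their proliferation. In brain tissue these miRNAs are minor species. Of the other muscle miRNAs, miR-208a, miR-208b and miR-499 lie within genes of myosin heavy chains.

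The 3p arms, which carried nearly all reads of the family, fall into 2 seed families, and their sequences are shown because they determine how well the reads of one member can be told from those of another. Sequences were taken from RefSeq (GRCr8), which held 7 of the 8 members. The seed is in capitals.
miR-1-3p: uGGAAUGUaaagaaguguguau
miR-206-3p: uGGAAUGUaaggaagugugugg
miR-133a-3p: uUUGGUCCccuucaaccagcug
miR-133b-3p: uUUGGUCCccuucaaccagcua
All 4 are 22 bases long, so no correction for length applies. Whether the library preparation recovered the different sequences equally was not tested, so comparisons between members are of reads. Counted from the 5′ end, miR-206-3p differs from miR-1-3p at 3 positions (A11G, A21G and U22G), all outside the seed. miR-133b-3p differs from miR-133a-3p at the last base alone (G22A). A read of miR-133 that lost or gained its last base therefore cannot be placed with certainty, and the values of miR-133b-3p, the rarer of the pair, are uncertain for that reason. Apart from miR-1b, which had no row in the count tables and differs from miR-1-3p by G17A, no other mature miRNA in the RefSeq table had either seed.

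In GRCr8 the mature miR-1-3p lies at chr18:2160339-2160360 and miR-133a-3p at chr18:2157886-2157907, both on the minus strand. Their hairpins (Mir1 and Mir133a1) are 2368 bases apart, within the span of Mib1, a protein-coding gene on the plus strand. Mature reads do not show which copy of a hairpin they came from. miR-206-3p lies at chr9:30590747-30590768 and miR-133b-3p at chr9:30594629-30594650, both on the plus strand. Those hairpins are 3801 bases apart, within the span of the long non-coding RNA LOC120094648. The hairpins of miR-1 and miR-133a are each overlapped on the plus strand by another annotated miRNA (Mir3571 and Mir3582, of which RefSeq lists miR-133c as the mature product of the second), and the rows of miR-3571 and miR-133c had 0 reads in every library.

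miR-1-3p had by far the most reads of the members. It had 19388 reads over the 24 libraries, 79.7% of all reads of the family, and ranked between 93rd and 200th among the 728 rows of a library. miR-133a-3p had 2880 reads and miR-206-3p 1800 reads, and all 3 were detected in 24 of 24 libraries. miR-133b-3p had 226 reads, between 0 and 26 in a library. Of the 5p arms, which are the passenger strands, miR-133a-5p had 18 reads in 10 libraries, with at most 4 in any of them, and miR-1-5p, miR-133b-5p and miR-206-5p had 0 reads in every library. Together the 8 rows took 0.012 to 0.085% of the miRNA reads of a library.

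The tissue was brain by its markers. The neuronal list (both arms of miR-124 and miR-9a) summed to between 59051 and 158393 counts per 1000000 miRNA reads (CPM) in a library. Levels here are CPM scaled by TMM, a factor that removes differences in the make-up of libraries. Libraries held 523298 to 4139901 miRNA reads, so that 1 read was worth 0.206 to 2.24 CPM and a count of 0 allowed a level of up to 0.619 to 6.71 CPM (3 reads). These limits cover counting error only, since reads without molecular identifiers may be copies of 1 molecule. In bulk tissue fewer cells of a type and less RNA per cell cannot be told apart.

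Across the 4 groups the order of TMM-scaled miR-1-3p levels, from the highest, was sham cortex, TBI cortex, sham thalamus, TBI thalamus. With scaling by library size alone the means of TBI cortex (410 CPM) and sham thalamus (415 CPM) changed places. In sham cortex the lowest, median and highest levels were 453, 690 and 757 CPM (mean 659 ± 118, SD, n = 6). In TBI cortex they were 312, 414 and 571 CPM (mean 418 ± 91.3, SD, n = 6). The ranges of these groups overlapped only through TBI rat 22 at 571 CPM and sham rat 32 at 453 CPM, and the other 5 TBI rats lay below every sham rat. This separation depended on the TMM scaling. With scaling by library size alone, only TBI rat 52 lay below every sham rat, at 316 CPM against 325 CPM for sham rat 32. A gap with no overlap at all between these groups, which miR-1-3p did not have, was seen for 2.43% of the miRNAs tested in cortex. How many miRNAs had most TBI rats below every sham rat was not counted, in cortex or in thalamus. In sham thalamus the levels were 257, 375 and 474 CPM (mean 365 ± 88.6, SD, n = 6). In TBI thalamus they were 101, 193 and 354 CPM (mean 200 ± 95.6, SD, n = 6). The ranges of TBI cortex and sham thalamus, which are neighbours in this order, overlapped, as did those of the 2 thalamus groups, which were free of overlap for 1.28% of the miRNAs tested there.

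**Figure D1:**
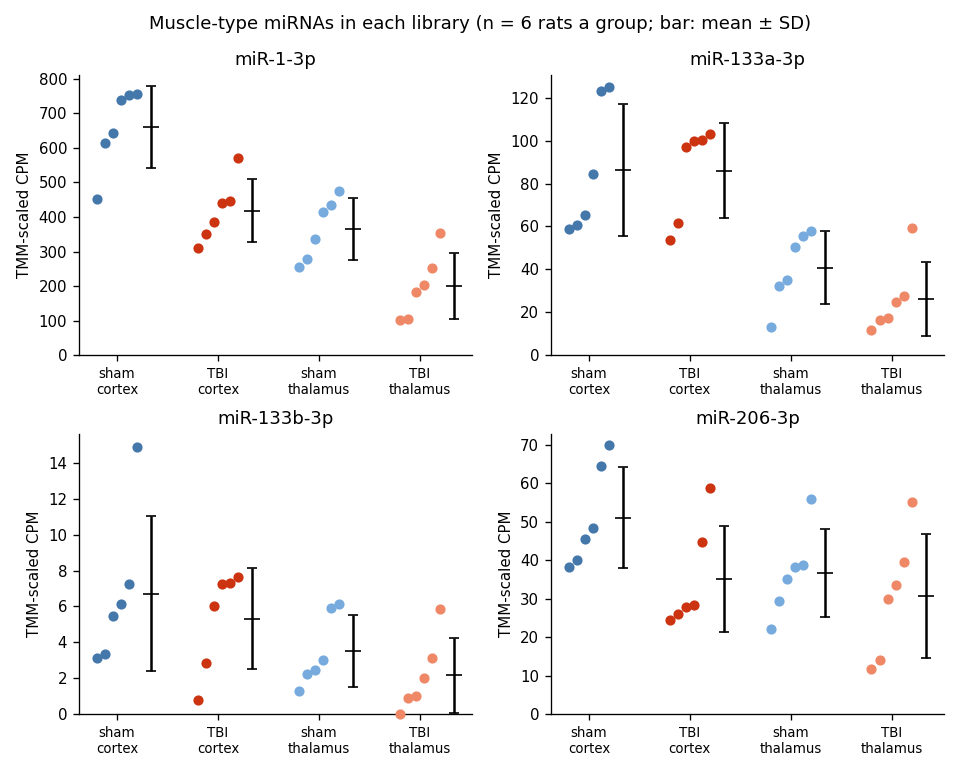
TMM-scaled CPM of the 4 detected 3p arms (vertical axes from 0, a separate scale for each miRNA) in sham cortex, TBI cortex, sham thalamus and TBI thalamus; each point is 1 library and the bar gives the mean ± SD of 6 rats. For miR-1-3p, 5 of 6 TBI cortex libraries lie below all sham cortex libraries, while the cortex groups of miR-133a-3p overlap between 58.9 and 103 CPM.

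miR-133a-3p has an annotated hairpin at the same locus as miR-1-3p. Its lowest, median and highest levels were 58.9, 75.0 and 125 CPM in sham cortex. In TBI cortex they were 53.6, 98.4 and 103 CPM. The cortex groups overlapped, although sham rats 34 and 55 lay above every TBI rat and TBI rat 63 below every sham rat, with means of 86.3 ± 30.6 and 85.9 ± 22.1 CPM (SD, n = 6 each). In sham thalamus the levels were 13.4, 42.7 and 57.8 CPM, and in TBI thalamus 11.8, 21.1 and 59.1 CPM. The top value of TBI thalamus came from rat 45, and the next rat there had 27.8 CPM.

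miR-206-3p, which shares the seed of miR-1-3p, was at 38.2, 46.9 and 70.0 CPM (lowest, median, highest) in sham cortex and at 24.4, 28.1 and 58.7 CPM in TBI cortex. In cortex 4 of 6 TBI rats lay below every sham rat, and TBI rats 52 and 63 lay within the sham range. In sham thalamus it was at 22.0, 36.8 and 55.96 CPM, and in TBI thalamus at 11.8, 31.7 and 55.1 CPM. miR-133b-3p had medians of 5.82 CPM in sham cortex, 6.65 CPM in TBI cortex, 2.74 CPM in sham thalamus and 1.52 CPM in TBI thalamus. The median counts behind them were low, at 10.5, 12, 9 and 3.5 reads in the same order. The highest level of miR-133b-3p was 14.9 CPM, in sham cortex of rat 34.

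The first comparison asked what the injury changed in the perilesional cortex. miR-1-3p fell by 0.62 on the log2 scale (SE 0.15), to 0.651 of the sham level, with an adjusted p of 0.0361 by edgeR's quasi-likelihood test over 371 miRNAs. It was the only one of the 4 members tested that passed the threshold of 0.05, where 5.66% of all miRNAs tested passed and 2.7% passed as lower. It had the 6th lowest log2 fold change and the 11th smallest p of the 371, beside a median of 0.05 over all of them on the same scale. miR-133a-3p differed by 0.05 (SE 0.23, adjusted p = 0.912), miR-133b-3p by −0.26 (SE 0.41, adjusted p = 0.767) and miR-206-3p by −0.46 (SE 0.26, adjusted p = 0.280) on the log2 scale. These errors leave room for changes: the 95% interval was −0.39 to 0.50 for miR-133a-3p and −0.97 to 0.04 for miR-206-3p. miR-499-5p, the other muscle miRNA with enough reads to test, differed by −0.28 (SE 0.20, adjusted p = 0.394).

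The call of miR-1-3p in cortex lay close to its threshold. It was kept in 5 of 12 fits that each left out 1 rat, in which the log2 fold change stayed between −0.73 and −0.57. The call was lost, on the same adjusted test, without TBI rat 24 (adjusted p = 0.0668), without TBI rat 45 (adjusted p = 0.0639) and without TBI rat 52 (adjusted p = 0.0764). It was also lost without sham rat 26 (adjusted p = 0.0720), sham rat 34 (adjusted p = 0.0547), sham rat 38 (adjusted p = 0.0772) or sham rat 50 (adjusted p = 0.0828). The direction was negative in all 12. Scaling by library size alone gave −0.43 (adjusted p = 0.146). That scaling shifted the log2 fold changes of all miRNAs by a median of 0.21. Relative to the median over all miRNAs, which was 0.25 with library size scaling and 0.05 with TMM, miR-1-3p stood at −0.68 and −0.67. The TMM factors, here those set over all 24 libraries, moved with the groups, at 0.718 to 0.923 in sham cortex and 0.919 to 1.05 in TBI cortex, and their part in the result was not tested beyond that. DESeq2 gave −0.64 (adjusted p = 0.00527).

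**Figure D2:**
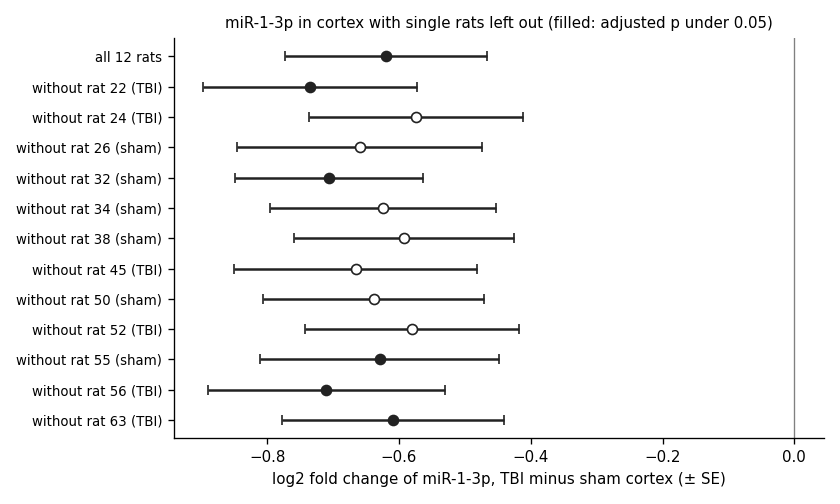
Log2 fold change of miR-1-3p in cortex, TBI minus sham (horizontal axis, ± SE), for all 12 rats and with each rat left out in turn; filled points have an adjusted p under 0.05. All points lie between −0.73 and −0.57, and 5 of the 12 leave-one-out points are filled.

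Read ratios within a library do not depend on its scaling. For every 100 reads of miR-1-3p, sham cortex had 9.87, 12.1 and 16.9 reads of miR-133a-3p (lowest, median, highest). TBI cortex had 13.9, 20.4 and 31.99. The TBI values were the higher ones, and the groups overlapped between 13.9 and 16.9, through sham rats 34 and 55 and TBI rats 56 and 63. In thalamus the ratio was 4.84, 11.7 and 14.0 in sham rats and 7.85, 10.4 and 24.6 in TBI rats, where rats 45 (23.5) and 52 (24.6) stood above the other 4. For miR-206-3p, reads per 100 reads of miR-1-3p had medians of 7.80 in sham cortex, 6.93 in TBI cortex, 8.42 in sham thalamus and 11.6 in TBI thalamus, with overlapping ranges. For miR-133b-3p, reads per 100 reads of miR-133a-3p had medians of 6.87, 6.55, 9.41 and 7.64 in the same order of groups. The ratios were chosen after the levels had been seen and are given without a test.

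**Figure D3:**
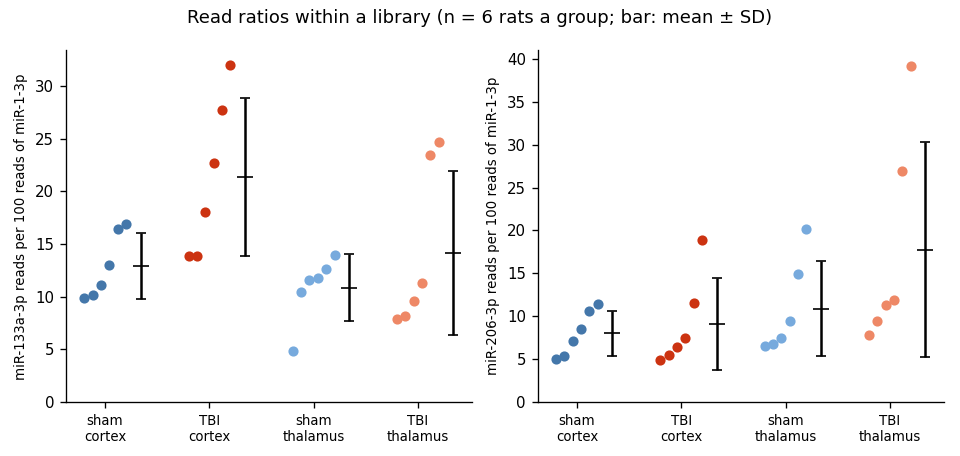
Reads of miR-133a-3p (left) and of miR-206-3p (right) per 100 reads of miR-1-3p in each library (vertical axes from 0) in the 4 groups; each point is 1 library and the bar gives the mean ± SD of 6 rats. The ratio of miR-133a-3p to miR-1-3p has a median of 20.4 in TBI cortex and 12.1 in sham cortex, with an overlap between 13.9 and 16.9.

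In the thalamus, which lies away from the impact, miR-1-3p was also lower in TBI rats, by −0.87 on the log2 scale (SE 0.30), but it did not pass the test across 390 miRNAs (unadjusted p = 0.0122, adjusted p = 0.576, edgeR quasi-likelihood). None of the 3 members tested there passed, beside 0.513% of all miRNAs tested (2 miRNAs, both higher in TBI rats). At an unadjusted p under 0.05, 1 of the 3, miR-1-3p, passed, beside 5.64% of all. Of all log2 fold changes in thalamus that of miR-1-3p was the 3rd lowest, and 5 of 6 TBI rats lay below every sham rat, rat 24 being the exception at 354 CPM. With scaling by library size alone, TBI rat 45 (295 CPM) also lay above the lowest sham rat there (rat 55, 237 CPM). miR-133a-3p differed by −0.64 (SE 0.38, adjusted p = 0.774) and miR-206-3p by −0.21 (SE 0.34, adjusted p = 0.877). miR-133b-3p had too few reads to pass the filter.

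The injury effects of the regions were also compared with each other in 1 fit of all 24 libraries. That fit held no term for the rat, so the libraries of a rat were treated as independent. The effect in cortex minus that in thalamus was 0.21 for miR-1-3p (SE 0.35, adjusted p = 1.00), with a 95% interval of −0.48 to 0.89, so the call in cortex and its absence in thalamus do not show a difference. For miR-133a-3p this difference was 0.63 (SE 0.46, adjusted p = 1.00), for miR-133b-3p 0.18 (SE 0.69) and for miR-206-3p −0.34 (SE 0.43). No miRNA of 407 passed by edgeR or by DESeq2, and 16 (3.93%) had an unadjusted edgeR p under 0.05, none of them a member.

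**Figure D4:**
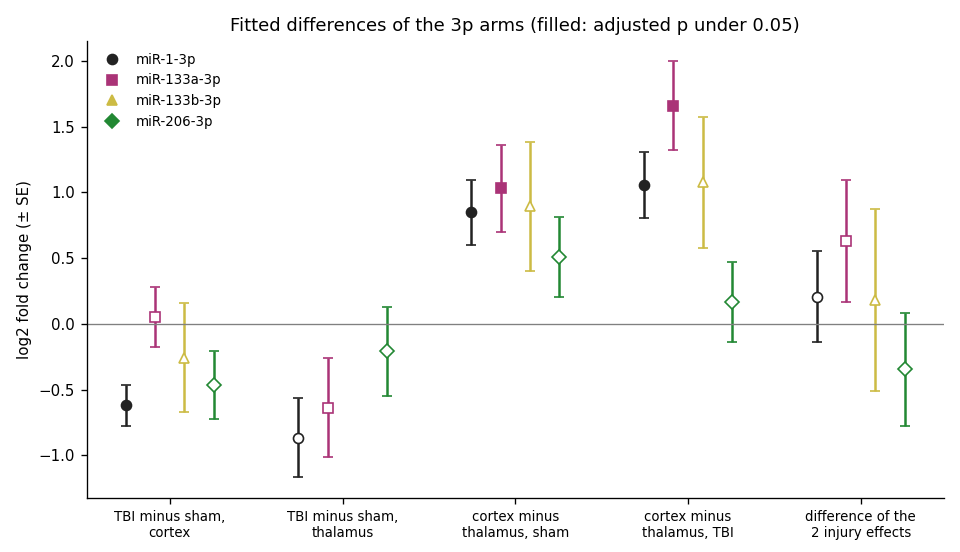
Log2 fold changes (vertical axis, ± SE) of the 4 detected 3p arms in the 5 comparisons; filled symbols have an adjusted p under 0.05 over all miRNAs tested, and miR-133b-3p could not be tested within thalamus. The filled points are miR-1-3p in TBI against sham cortex, and miR-1-3p and miR-133a-3p in cortex against thalamus in sham and in TBI rats.

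The next comparison set cortex against thalamus of the same animals. Its fit held no term for the rat and so treated the libraries of a rat as independent. A fit with the rat as a block is given among the alternatives below. Both members annotated at the chr18 locus were higher in cortex. In sham rats miR-1-3p was higher by 0.85 on the log2 scale (SE 0.25, adjusted p = 0.0122) and miR-133a-3p by 1.03 (SE 0.33, adjusted p = 0.0225, edgeR quasi-likelihood over 407 miRNAs). They were 2 of 4 members tested, where 25.1% of all miRNAs passed and 12.3% passed as higher in cortex. With TMM scaling the levels of miR-133a-3p in sham cortex and sham thalamus did not overlap (58.9 CPM against 57.8 CPM at the nearest), which was true of 14% of all miRNAs tested. With scaling by library size alone they overlapped, with sham cortex down to 42.3 CPM (rat 32) and sham thalamus up to 69.7 CPM (rat 50). In TBI rats no member had levels free of overlap between regions (11.8% of all miRNAs did). There miR-1-3p was higher in cortex by 1.06 (SE 0.25, adjusted p = 0.00245) and miR-133a-3p by 1.66 (SE 0.34, adjusted p = 0.000548), again 2 of 4 members, where 27.3% of all miRNAs passed and 13.3% passed as higher. The difference of miR-133a-3p in TBI rats was 402nd in order from the lowest of 407, that is among the 6 highest.

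The pair encoded on chr9 did not pass in either group. miR-133b-3p differed between cortex and thalamus by 0.89 in sham rats (SE 0.49, adjusted p = 0.193) and by 1.08 in TBI rats (SE 0.50, adjusted p = 0.130). miR-206-3p differed by 0.51 in sham rats (SE 0.30, adjusted p = 0.233) and by 0.17 in TBI rats (SE 0.30, adjusted p = 0.716). miR-499-5p, at 71.1 to 308 CPM, differed by 0.09 in sham rats (SE 0.27, adjusted p = 0.851) and by −0.18 in TBI rats (SE 0.27, adjusted p = 0.665).

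Within single rats, miR-1-3p was higher in cortex in 11 of 12, with a median ratio of cortex to thalamus of 1.83. TBI rat 24 was the exception, at 0.990, and TBI rat 56 had the highest ratio, 4.27. miR-133a-3p was higher in cortex in 12 of 12 rats, from a ratio of 1.05 in sham rat 50 to 9.18 in sham rat 55, whose thalamus library held only 6 reads of it. With scaling by library size alone both were higher in cortex in 10 of 12 rats. miR-206-3p was higher in cortex in 8 of 12 rats, with a median ratio of 1.42. The region calls in TBI rats were kept in all 12 fits that left out 1 rat. In sham rats the call of miR-1-3p was lost without rat 26 (adjusted p = 0.0541) or rat 55 (adjusted p = 0.0520), and that of miR-133a-3p without rat 24 (adjusted p = 0.0510), rat 26 (adjusted p = 0.0565), rat 34 (adjusted p = 0.0709) or rat 55 (adjusted p = 0.0875), of which rat 24 is a TBI rat in the same fit (1.03 with all rats and 0.92 without it). Scaling by library size shifted the log2 differences of all miRNAs in sham rats by a median of −0.44 and ended both sham calls (miR-1-3p 0.41, adjusted p = 0.245; miR-133a-3p 0.59, adjusted p = 0.219). Relative to the median over all miRNAs they stood at 0.87 and 1.04, against 0.88 and 1.07 with TMM.

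**Figure D5:**
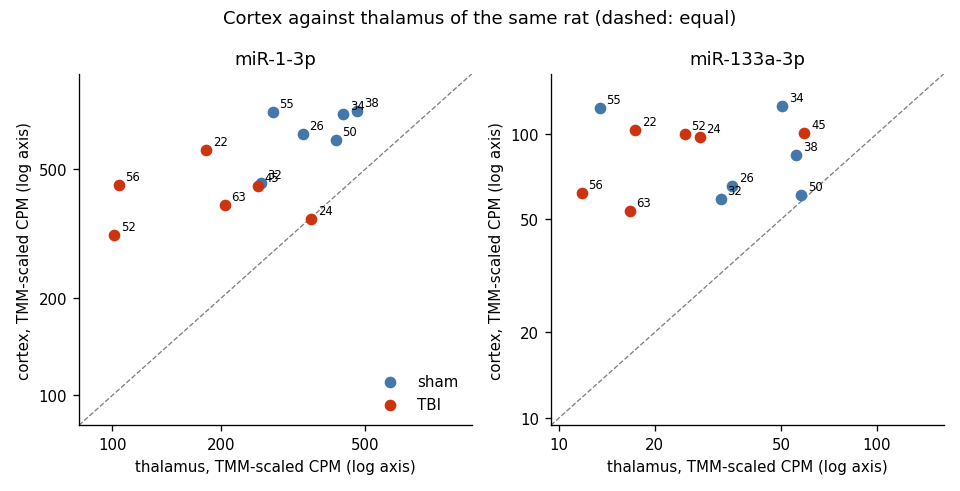
TMM-scaled CPM of miR-1-3p (left) and miR-133a-3p (right) in cortex (vertical, log axis) against thalamus (horizontal, log axis) of the same rat; each point is 1 rat with its number, and the dashed line marks equal levels. All 12 rats lie above the line for miR-133a-3p, and 11 of 12 for miR-1-3p.

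Of the muscle list as a whole, 10 rows with miR-208a, miR-208b and miR-499 included, 4 rows were at 0 in every library, all of them arms of miR-208a and miR-208b, and miR-499-3p had 16 reads in all. The summed level of the list was 763 to 1157 CPM in sham cortex, 591 to 966 CPM in TBI cortex, 479 to 842 CPM in sham thalamus and 238 to 727 CPM in TBI thalamus. In cortex 1 of its 5 tested rows was lower after TBI, beside 2.7% of all miRNAs tested, and none was higher. That row was miR-1-3p, whose result is given above, so the list adds no further call. The median log2 fold change of the list was −0.28. Heart-type miR-208 was thus not detected at this depth in any library.

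Marker miRNAs of other cell types were set beside these results. Of the list for vascular smooth muscle and pericytes (both arms of miR-143 and miR-145), 0 of 4 passed the test in cortex after TBI (median log2 fold change 0.10). The values ran from −0.05 for miR-143-3p to 0.64 for miR-145-5p (SE 0.34, adjusted p = 0.264, edgeR). The summed level was 26888 to 45484 CPM in sham cortex and 26995 to 48946 CPM in TBI cortex. Most of that sum was miR-143-3p (25871 to 44425 CPM in sham cortex), so it says little about the other rows. The same list was higher in cortex than in thalamus for 3 of 4 miRNAs in sham rats and for 1 of 4 in TBI rats. Of all miRNAs tested, 12.3% passed as higher in cortex in sham rats and 13.3% in TBI rats. The region counts of the marker lists are given with TMM scaling alone. Of the fibroblast and meningeal list 1 of 3 tested rose in cortex after TBI, beside 5.66% of all miRNAs called in either direction (miR-199a-3p by 0.80, SE 0.21, adjusted p = 0.037, edgeR), with a summed level of 306 to 465 CPM in sham cortex and 425 to 993 CPM in TBI cortex. Between regions it was higher in cortex for 2 of 3 in sham rats and for 0 of 3 in TBI rats, beside the same shares of all miRNAs. Whether these cell types had a part in the results on the muscle miRNAs was not tested.

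In the other lists for cortex after TBI, 0 of 2 endothelial, 0 of 2 red cell, 0 of 4 leukocyte and microglial and 0 of 4 neuronal miRNAs passed, with median log2 fold changes of −0.0030, −0.06, 0.56 and −0.01. The red cell list summed to 8.63 to 105 CPM over all libraries. In the choroid plexus list 1 of 3 rose, beside 5.66% of all miRNAs called in either direction (miR-211-5p, by 1.33, SE 0.34, adjusted p = 0.037, edgeR). The rest of that list did not rise, with miR-204-5p at −0.09 and miR-204-3p at −0.0021, and its median log2 fold change was −0.0021. Most of its level was miR-204-5p, at 929 to 2170 CPM in TBI cortex against 22.4 to 82.0 CPM for miR-211-5p. In thalamus no miRNA of any of these lists passed. Between regions, 1 of 4 neuronal miRNAs in sham rats and 3 of 4 in TBI rats were higher in cortex, beside 12.3% and 13.3% of all. In TBI rats 1 of 3 of the choroid plexus list was lower in cortex, beside 27.3% of all called in either direction. None of the endothelial, red cell or leukocyte lists passed between regions.

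Members varied together to different degrees from rat to rat. After the mean of each group was subtracted, log2(CPM + 1) of miR-133a-3p and miR-133b-3p had a Pearson correlation of 0.77 over 24 libraries. These miRNAs differ at their last base alone, and whether reads placed in the wrong row added to that value was not tested. miR-1-3p had a correlation of 0.54 with miR-133a-3p and 0.56 with miR-133b-3p, and miR-206-3p had values from −0.04 to 0.03 with the other 3. In order of closeness, miR-133b-3p was 27th to miR-133a-3p, and miR-133a-3p was 8th to miR-133b-3p and 47th to miR-1-3p. Among all 407 miRNAs tested, the closest to miR-1-3p were miR-26b-5p (0.78), miR-190b-5p (0.755), miR-19a-3p (0.73), miR-19b-3p (0.70) and miR-148b-3p (0.69). The closest to miR-133a-3p were miR-30b-5p (0.91), miR-31a-5p (0.90), miR-30c-5p (0.89), miR-374-5p (0.88) and miR-494-3p (0.88). For miR-206-3p they were miR-27b-5p (0.71), miR-151-5p (0.70), miR-28-5p (0.67), miR-132-3p (0.61) and miR-205 (0.57), and for miR-133b-3p miR-410-3p (0.85), miR-30b-5p (0.83), miR-145-5p (0.81), miR-872-3p (0.80) and miR-29a-3p (0.78). These are descriptions over points that share libraries, depth and, within a rat, the animal.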

How the data were processed

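Small RNA was sequenced in 24 libraries, cortex and thalamus of 12 rats. The authors trimmed adapters, mapped reads to the rat genome RGSC3.4 and annotated them with miRBase release 20 (aligner not given in the sources used here), and deposited raw counts per mature miRNA in a table for each region. Rows for other features (tRNA, in the cortex table) were left out of library sizes and tests. The deposited CPM tables, which repeat these libraries or hold other small RNAs, were not used, and 0 columns of per-sample values were left unassigned. Each rat of a group is a separate animal, and the rat number in the labels ties its cortex to its thalamus.

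Counts were tested as deposited with edgeR 4.0.16 (R 4.3.3): TMM factors, filterByExpr, quasi-likelihood test, Benjamini-Hochberg adjustment over all miRNAs tested, threshold 0.05. Injury was tested within each region (12 libraries each), as in the study. Region differences and the difference of injury effects came from 1 fit of 24 libraries, joined on miRNA name. The SE of a log2 fold change came from its size and the F statistic, and 95% intervals are 1.96 SE. DESeq2 1.42.0, other scalings, no filter, robust dispersion, summed near-identical pairs, a rat block and leaving out each rat were alternatives. The procedure was tested on simulated data.

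Named were all rows of the 4 miRNAs, the other muscle miRNAs and, for each tested member, the 5 miRNAs with the highest correlation of group-centred log2(CPM + 1). Members, marker lists and tests were chosen with earlier results of these data known. No pair of libraries within a group agreed within sampling noise (chi-square per degree of freedom 31.4 to 580). Deviations of the 2 libraries of a rat from their group means correlated at −0.18 to 0.64, and the pairing rests on the shared animal.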

Additional observations from a re-analysis of the deposited data

Results flagged for a closer look

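Each of the 4 detected 3p arms was looked at in each of the 4 groups for a library that stands far from the rest of its group (Dixon's test, n = 6). Of 16 groups of values, 2 held such a library, where chance gives about 0.8 (1 in 20). In TBI thalamus, miR-133a-3p was at 59.1 CPM in rat 45, and the next highest library had 27.8 CPM. In sham cortex, miR-133b-3p was at 14.9 CPM in rat 34, from 26 reads, and the next highest library had 7.26 CPM.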

How the results depend on the processing

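The fall of miR-1-3p in cortex kept its direction in every alternative run but lost its call with library size scaling (−0.43), in the fit of all 24 libraries (−0.66) and without rats 50, 55 and 56, whose libraries had under 1000000 miRNA reads in a region (−0.70, an alternative chosen after seeing the data). Leaving out single rats gave −0.73 to −0.57. In sham rats, library size scaling and the loss of rats 50, 55 and 56 ended the region calls of miR-1-3p (0.41 and 0.80) and miR-133a-3p (0.59 and 0.94), and leaving out single rats gave 0.73 to 0.90 and 0.75 to 1.14. The region calls in TBI rats held in every alternative run. The causes were not tested.

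The count of miRNAs called in cortex, 21, became 39 with library size scaling, 41 with DESeq2, 5 in the fit of 24 libraries and 4 to 30 without single rats. In thalamus, 2 became 5 in the fit of 24 libraries, 0 without rats 50, 55 and 56, and 0 to 2 without single rats. In sham rats the 102 region calls became 168 with library size scaling, and leaving out single rats gave 77 to 109.

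Signs changed only among members that were not called. miR-133a-3p in cortex was at −0.0020 with near-identical pairs summed, and −0.077 to 0.15 without single rats. miR-133b-3p in cortex ran from −0.47 to 0.094 without single rats. miR-206-3p in thalamus was at 0.22 without rats 50, 55 and 56, and −0.36 to 0.027 without single rats. Its region difference in TBI rats was −0.019 with library size scaling and −0.061 to 0.20 without single rats. The difference of injury effects of miR-133b-3p was −0.13 without rats 50, 55 and 56, and −0.14 to 0.73 without single rats.

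With the rat as a replicate block, no call changed among the members it tested (miR-133b-3p did not pass its filter for the region differences): the region difference of miR-1-3p was 0.80 in sham and 1.03 in TBI rats, and that of miR-133a-3p 0.96 and 1.67. The block called 81 miRNAs in sham and 150 in TBI rats, against 102 and 111 without it. Depth limits miR-133b-3p, with at most 26 reads in a library, and the 5p arms, with at most 4.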
